A study of Homo sapiens with 14 samples.

Results

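CTCF and 9 genes of the cohesin complex and its regulators were examined for peaks of ZNF143 ChIP-seq in human HEK293T cells. The 10 genes were taken as a named list, CTCF, RAD21, SMC1A, SMC3, STAG1, STAG2, NIPBL, WAPL, PDS5A and PDS5B, out of 19970 protein-coding genes. A peak was a promoter peak of a gene when its centre lay between 2 kb before and 1 kb past any annotated transcription start site (TSS) of that gene, and other peaks centred within the gene were gene-body peaks. By this rule, 14 of the 20429 peaks of untreated cells and 29 of the 35287 peaks of dTAG-V1-treated cells belonged to the 10 genes.

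HEK293T cells are a widely used line that derives from human embryonic kidney. All samples come from 1 clone of these cells, ZD29, in which ZNF143 is fused to the FKBP12F36V domain, so that untreated and treated cells alike carry the tagged protein. dTAG-V1 binds this domain and directs the tagged protein to degradation. Chromatin was precipitated with the polyclonal Proteintech antibody against ZNF143 from 4 samples without treatment and from 4 samples given 0.5 µM dTAG-V1 for 30 min. The study used these samples to ask whether this antibody also precipitates CTCF. A listed peak is therefore a call of the antibody, and whether ZNF143 or another protein was precipitated there cannot be told from the lists. Each condition is represented by 1 list of peaks. The untreated list holds peaks found in each of its 4 samples, whereas the dTAG-V1 list holds peaks found in any of its 4 samples, so by this rule a weak peak enters the dTAG-V1 list more easily. The lists hold no value per sample. No difference between them could therefore be set against the spread between samples, no test was made, and the depth of the libraries is unknown. CTCF ChIP-seq samples of the same cells were not analysed here.

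CTCF is a zinc finger protein that binds insulators and marks the borders of chromatin loops. Cohesin is the ring that extrudes such loops and holds sister chromatids together. SMC1A and SMC3 form the arms of the ring, RAD21 closes it, and STAG1 or STAG2 binds to RAD21. NIPBL loads cohesin and drives its movement, whereas WAPL, together with PDS5A or PDS5B, releases it from DNA. ZNF143 is a zinc finger activator that binds promoters through the SBS1 and SBS2 motifs.

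3 of the 10 promoters carried strong peaks in both conditions, namely those of CTCF, SMC1A and WAPL. The DNA under them is shown first because each holds a match to an SBS motif close to the summit. Sequences are given 5′ to 3′ on the strand named, in hg38. In the first pair, the stretch of the peak region that lies before every annotated TSS of the gene is printed, and capitals mark each motif hit at p 1e-05.
CTCF promoter (chr16:67562309-67562466, plus strand): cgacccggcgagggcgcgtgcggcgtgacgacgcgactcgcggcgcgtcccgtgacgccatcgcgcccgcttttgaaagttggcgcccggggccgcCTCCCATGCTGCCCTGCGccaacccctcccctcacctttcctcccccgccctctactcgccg
WAPL promoter (chr10:86521793-86522059, minus strand): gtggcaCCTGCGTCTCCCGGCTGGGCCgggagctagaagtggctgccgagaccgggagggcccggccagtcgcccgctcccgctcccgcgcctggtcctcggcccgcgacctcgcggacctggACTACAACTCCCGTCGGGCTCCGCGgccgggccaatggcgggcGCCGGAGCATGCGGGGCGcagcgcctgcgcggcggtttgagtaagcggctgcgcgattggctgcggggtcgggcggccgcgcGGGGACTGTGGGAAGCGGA
The CTCF stretch is 158 bp long and holds 1 hit, to SBS1. The WAPL stretch is 267 bp long and holds 5 hits, 2 to SBS1 and 3 to SBS2. An SBS2 and an SBS1 hit overlap within the same capitals, and the hit at the right end runs past the TSS.

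Single sites are printed next with up to 30 bases each and the motif match in capitals. The first 3 are the strongest SBS matches of the 3 strong promoters. The others are the strongest match of any searched motif in the best promoter peak of SMC3, STAG1, STAG2 and PDS5B, which have weaker peaks. The matches of SMC3, STAG2 and PDS5B did not reach p 1e-05.
CTCF, SBS1, match probability 4.06e-08 (chr16:67562399-67562428, plus strand): ggccgcCTCCCATGCTGCCCTGCGccaacc
SMC1A, SBS1, match probability 4.7e-06 (chrX:53422672-53422701, minus strand): gccggtCGCCCGGCTTGCACTGCGgcgttt
WAPL, SBS2, match probability 5.13e-08 (chr10:86521912-86521940, minus strand): ctggACTACAACTCCCGTCGGGCTCcgcg
SMC3, CTCF, match probability 1.32e-05 (chr10:110566802-110566831, plus strand): aattgtctCCAGCAGCGGGCGGgggtgggg
STAG1, SBS1, match probability 1.42e-06 (chr3:136751578-136751607, plus strand): gcatctCCCCCAGCCGCCACCCCGctgccc
STAG2, SBS1, match probability 1.05e-05 (chrX:123961456-123961485, minus strand): cacagcCTCCCGGCTTTCCTCCCCcgacta
PDS5B, SBS2, match probability 1.73e-05 (chr13:32585940-32585968, minus strand): ctttATTAAATCTCCCCGCTTTCCTaatt
The match probability, also written as p for a threshold, is the share of sequences drawn with the base composition of the genome that match the matrix as well. Matrices for CTCF, SBS1 and SBS2 were learned from peaks of both lists on odd-numbered autosomes, so that peaks of STAG1, NIPBL and PDS5B could have contributed to them. Both strands were searched, and SBS1 and SBS2 hits may overlap. A match describes the sequence and does not show that a protein was bound there.

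Promoter peaks were listed for 6 of the 10 genes in untreated cells, beside 40.5% of all protein-coding genes. With dTAG-V1, they were listed for 8 of the 10, beside 48.2% of all protein-coding genes. The 6 genes of the untreated list were CTCF, SMC1A, SMC3, STAG1, STAG2 and WAPL, and each had a promoter peak in the dTAG-V1 list as well, where 37.2% of all protein-coding genes had one in both. RAD21 and PDS5B had a promoter peak only in the dTAG-V1 list, which brings the count in either list to 8, beside 51.6%. NIPBL and PDS5A had none in either.

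**Figure D1:**
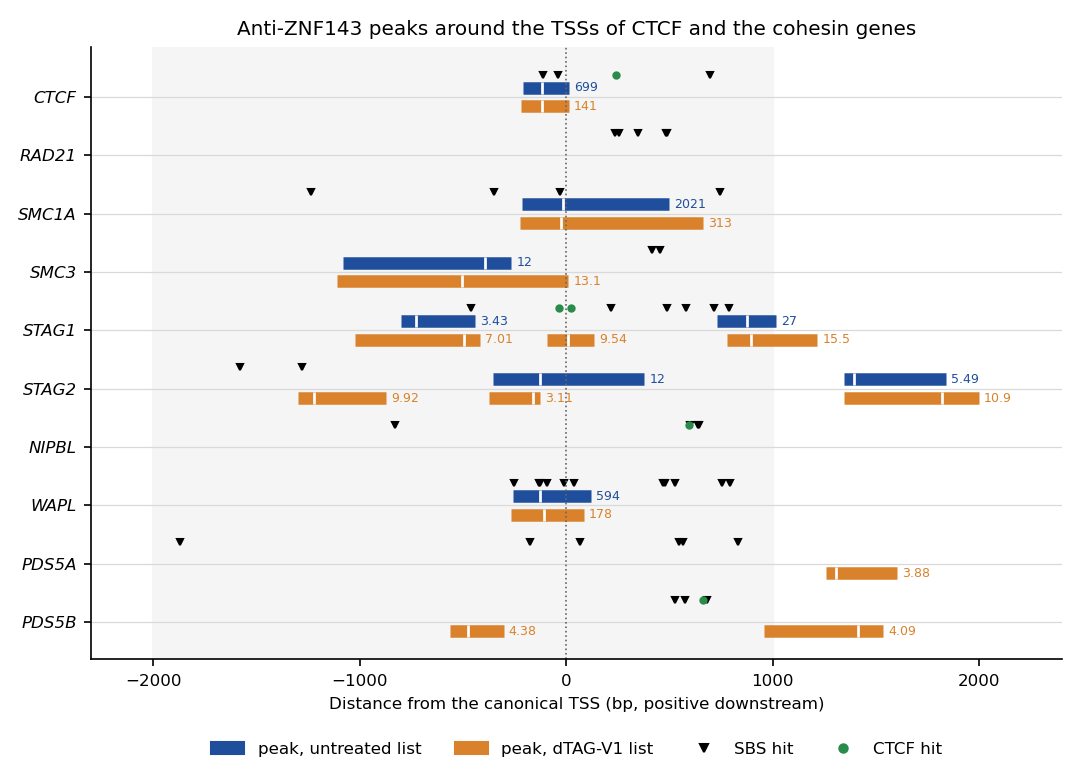
Positions of the peaks near the canonical TSS of each gene, in bp along the gene. Bars are peaks of the untreated (blue) and dTAG-V1 (orange) lists, the white tick is the summit, the number is the −log10 q-value, and the grey area is the promoter window. Triangles and circles are SBS and CTCF hits at p 1e-05. Bars over the TSS with values of 141 to 2021 are seen for CTCF, SMC1A and WAPL. RAD21, NIPBL and PDS5A have SBS hits but no bar in the grey area.

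At the CTCF gene (chr16:67562467-67639177, plus strand), the untreated list held 1 promoter peak, of 226 bp, centred at −98 bp from the canonical TSS. Its fold enrichment was 19.5 and its −log10 q-value was 699, which ranked 2026th in the list, above 90.1% of all peaks and above 79.4% of promoter peaks. In the dTAG-V1 list, the peak was 230 bp wide and centred at −102 bp, with a fold enrichment of 9.64, a −log10 q-value of 141 and rank 1977. It stood above 94.4% of that list and above 85.2% of its promoter peaks. The peak at the CTCF promoter therefore had smaller values in the dTAG-V1 list but nearly the same rank. Of all promoter regions with 1 peak in each list, 32.0% had the higher fold enrichment in the dTAG-V1 list. Among those with an untreated fold enrichment of at least 10, the share was 5.08%, and among those under 10 it was 45.3%. Lower values were thus common where the untreated value was high, but choosing regions by the untreated value alone favours this. The scales of the lists differ, because each q-value and fold enrichment was computed within its own call, and ranks within a list were used to place the peaks. The summits of both lists were 4 bp apart, and the SBS1 hit printed above lay 3 bp from the untreated and 7 bp from the dTAG-V1 summit. The promoter is shared with CTCF-DT, an annotated divergent transcript whose TSS lay within the same window. No peak of either list was found in the body of the gene.

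SMC1A encodes the X-linked arm of the ring and had the strongest promoter peak of the 10 genes in both lists. In untreated cells, the peak was 709 bp wide with its summit at −18 bp, a fold enrichment of 26.4 and a −log10 q-value of 2021. It ranked 1323rd and stood above 85.4% of promoter peaks. In the dTAG-V1 list, it was 887 bp wide with its summit at −25 bp, a fold enrichment of 14.9, a −log10 q-value of 313 and rank 1531, above 87.7% of promoter peaks. The summits were 7 bp apart, and the SBS1 hit lay 14 bp from the untreated and 7 bp from the dTAG-V1 summit. The region (chrX:53421992-53422878) also covers the start of RIBC1, a protein-coding gene, so that the peak cannot be assigned to either gene alone.

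WAPL, the release factor, had a peak of 375 bp centred at −70 bp in untreated cells, with a fold enrichment of 13.6, a −log10 q-value of 594 and rank 2134. The dTAG-V1 peak was 353 bp wide and centred at −91 bp, with a fold enrichment of 9.23, a −log10 q-value of 178 and rank 1834. These values stood above 78.8% of promoter peaks in the untreated list and above 86.0% in the dTAG-V1 list. The strongest SBS2 hit of the promoter lay 8 bp from the untreated and 25 bp from the dTAG-V1 summit. Of the 3 genes, WAPL had the most SBS hits in the window around its canonical TSS, 11, compared with 3 for CTCF and 4 for SMC1A. The promoter is shared with the divergent transcript WAPL-DT.

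The order of the highest promoter peaks by −log10 q-value was SMC1A, CTCF, WAPL, STAG1, STAG2 and SMC3 in untreated cells, where the last pair stood at ranks 11904 and 11915. It was SMC1A, WAPL, CTCF, STAG1, SMC3, STAG2, PDS5B and RAD21 with dTAG-V1. CTCF and WAPL exchanged places, at ranks 2026 and 2134 in the untreated and 1977 and 1834 in the dTAG-V1 list. Without values per sample, it cannot be said whether neighbours in this order differ. The median of all promoter peaks was 25.5 in the untreated and 12.2 in the dTAG-V1 list. STAG1 lay just above both medians, SMC3 above only the dTAG-V1 median, and STAG2, PDS5B and RAD21 below the median of each list they entered.

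**Figure D2:**
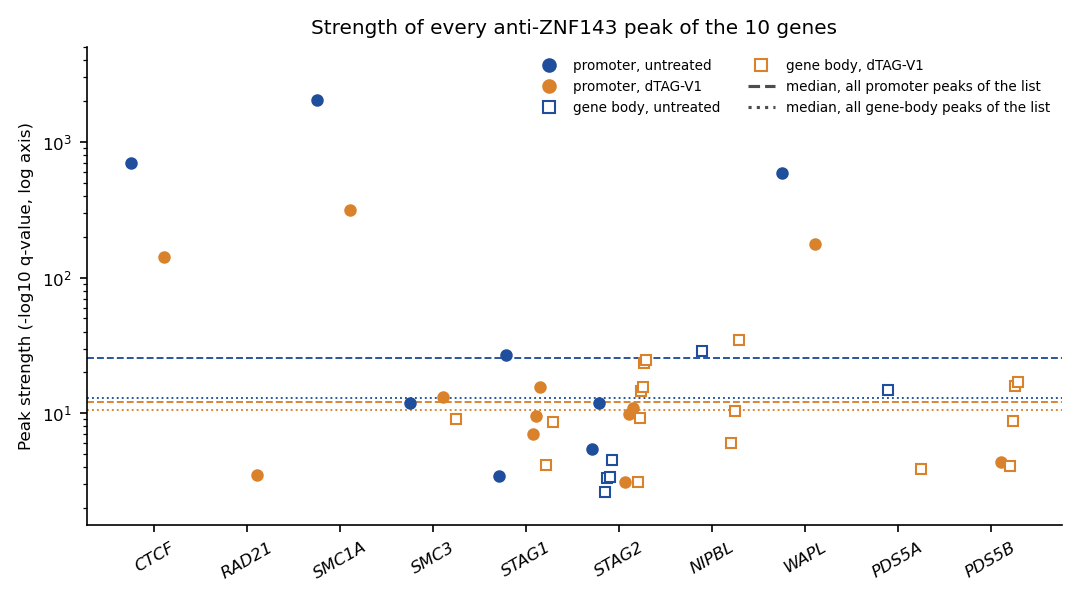
The −log10 q-value (log axis) of each of the 43 peaks of the 10 genes, with filled circles for promoter and open squares for gene-body peaks, blue for the untreated and orange for the dTAG-V1 list. Dashed and dotted lines are the medians of all promoter and all gene-body peaks of the list in that colour. The promoter peaks of CTCF, SMC1A and WAPL stand at 141 or more, and all other peaks lie at 34.9 or lower.

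SMC3, the partner of SMC1A in the ring, had a broad and weak promoter region in both lists (chr10:110566586-110567705). In untreated cells, the peak was 815 bp wide and centred at −675 bp, with a fold enrichment of 2.92, a −log10 q-value of 12.0 and rank 11915. The dTAG-V1 peak was 1120 bp wide and centred at −550 bp, with a fold enrichment of 2.88, a −log10 q-value of 13.1 and rank 15579. The summits lay 108 bp apart, farther than at CTCF, SMC1A and WAPL, where they were at most 17 bp apart. Over all promoter regions with 1 peak in each list, weaker ones had larger distances too. The median distance was 6 bp at an untreated fold enrichment of at least 10 and 53 bp under 10. No SBS hit was found in this region, although an SBS1 hit with a match probability of 2.17e-07 lay in the same window, at 415 bp past the TSS and outside the peaks of both lists.

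RAD21 closes the ring between SMC1A and SMC3. No peak of either list lay within the window of its canonical TSS, although that window holds 5 SBS hits. The dTAG-V1 list held 1 peak at an internal TSS, at 8068 bp from the canonical TSS, which belongs to a transcript annotated as a retained intron. Its fold enrichment was 1.98 and its −log10 q-value was 3.51, above only 6.27% of the list, and neither motif was found in it. When only canonical TSSs were used, RAD21 had no promoter peak.

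The paralogs STAG1 and STAG2 each had 3 promoter regions, 2 in both lists and 1 only with dTAG-V1, and all were weak. At STAG1, the strongest region lay in intron 1 with summits at 875 bp and 893 bp past the TSS. Its −log10 q-value was 27.0 with rank 7471 in the untreated list and 15.5 with rank 13078 in the dTAG-V1 list, and it holds the SBS1 match printed above. The second region, before the TSS, had −log10 q-values of 3.43 and 7.01 at centres of −622 bp and −722 bp.
The third region of STAG1 lay across the TSS and was found only with dTAG-V1, with a −log10 q-value of 9.54 and a fold enrichment of 2.62. It was the only 1 of the 12 promoter regions with a CTCF hit, and it holds 2 of them, with match probabilities of 1.93e-08 and 2.24e-08. The first of these is printed here, chosen after its values were seen.
STAG1, CTCF, match probability 1.93e-08 (chr3:136752397-136752426, minus strand): caccgcggCCAGCAGAGGGCGGtccggacc
This site lay 41 bp from the dTAG-V1 summit. The divergent transcript STAG1-DT starts within the windows of all 3 regions.

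At STAG2, 1 region crossed the canonical TSS, although its dTAG-V1 peak lay wholly before that TSS. The −log10 q-value and peak width of the region were 12.0 and 733 bp in untreated cells, and 3.11 and 246 bp with dTAG-V1. A region in intron 1, next to an alternative TSS, went the other way, with −log10 q-values of 5.49 in the untreated and 10.9 in the dTAG-V1 list. The third region was centred at −1086 bp, within −32 bp of the start of a retained-intron transcript, and entered only the dTAG-V1 list with a −log10 q-value of 9.92. An antisense transcript, STAG2-AS1, starts within the windows of all 3. STAG2 has 24 annotated TSSs, compared with 8 for STAG1. The summits of the intron 1 region of STAG2 lay 424 bp apart between the lists, beside the median of 53 bp for promoter regions with an untreated fold enrichment under 10.

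NIPBL, PDS5A and PDS5B act on cohesin once it is made. PDS5B had 1 promoter peak, only in the dTAG-V1 list, centred at −434 bp with a fold enrichment of 2.23 and a −log10 q-value of 4.38. A second weak dTAG-V1 peak of PDS5B, at 1128 bp past its nearest TSS, and one of PDS5A, at 1028 bp past its nearest TSS, fell just outside the promoter window. Their −log10 q-values were 4.09 and 3.88. NIPBL had no peak within 2 kb of its canonical TSS. All the peaks near the starts of these genes were thus weak ones of the dTAG-V1 list.

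SBS sequence was also present near the start sites of those of the 10 genes that had no peak there. All 10 genes had an SBS hit at p 1e-05 in the window of the canonical TSS, a feature shared by 80.4% of all protein-coding genes. At this threshold, the 10 genes therefore cannot show whether peaks and hits go together. At p 1e-06, hits were present at CTCF, SMC3, NIPBL, WAPL and PDS5A, where 32.2% of all genes had one. The hits of CTCF and WAPL lay within peaks of both lists, whereas those of SMC3, NIPBL (1.99e-07) and PDS5A (3.31e-07) lay in no peak. Among all genes with such a hit, 52.2% had a promoter peak in the untreated list, beside 40.5% of all protein-coding genes. A CTCF hit at p 1e-05 was present in the windows of CTCF, STAG1, NIPBL and PDS5B, 4 of 10 genes beside 44.5% of all genes.

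In all, the 10 genes had 12 promoter regions after overlapping peaks of both lists were joined. Of these, 8 were found in both lists, 4 only with dTAG-V1 and 0 only in untreated cells. Over all protein-coding genes, 55.9% of promoter regions were found in both lists and 33.5% only with dTAG-V1, so the share found only with dTAG-V1 was near that of all promoters. An SBS hit was present in 7 of the 12, beside 43.4% of all promoter regions, and a CTCF hit in 1 of the 12, beside 22.2%. At a stricter hit threshold of p 1e-06, only the CTCF and WAPL regions kept an SBS hit.

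Most of the 19 gene-body regions of the 10 genes were found only with dTAG-V1, and more of them held a CTCF hit than an SBS hit. 13 were found only with dTAG-V1, beside 58.7% of all gene-body regions, 4 were found in both lists, beside 26.8%, and 2 only in untreated cells. CTCF hits were present in 9 of the 19, beside 32.6% of all gene-body regions, and SBS hits in 3, beside 18.3%, so that gene-body regions as a whole lay the same way. The density of gene-body regions was 1.12 per 100 kb over the 10 genes and also 1.12 per 100 kb over all protein-coding genes. It was 1.18 over protein-coding genes within the length range of the 10. With gene bodies limited to canonical transcripts, it was 1.02 over the 10 genes and 1.09 over all protein-coding genes. CTCF, RAD21, SMC1A and WAPL, 40.0% of the 10 genes, had no gene-body region. This was so for 67.1% of all protein-coding genes and for 46.0% of those within the length range of the 10. CTCF, RAD21, SMC1A and WAPL span 28843 to 86537 bp. STAG1, STAG2, NIPBL, PDS5A and PDS5B, which had gene-body regions, span 155094 to 462453 bp. SMC3 spans only 38365 bp and had 1 gene-body region as well.

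**Figure D3:**
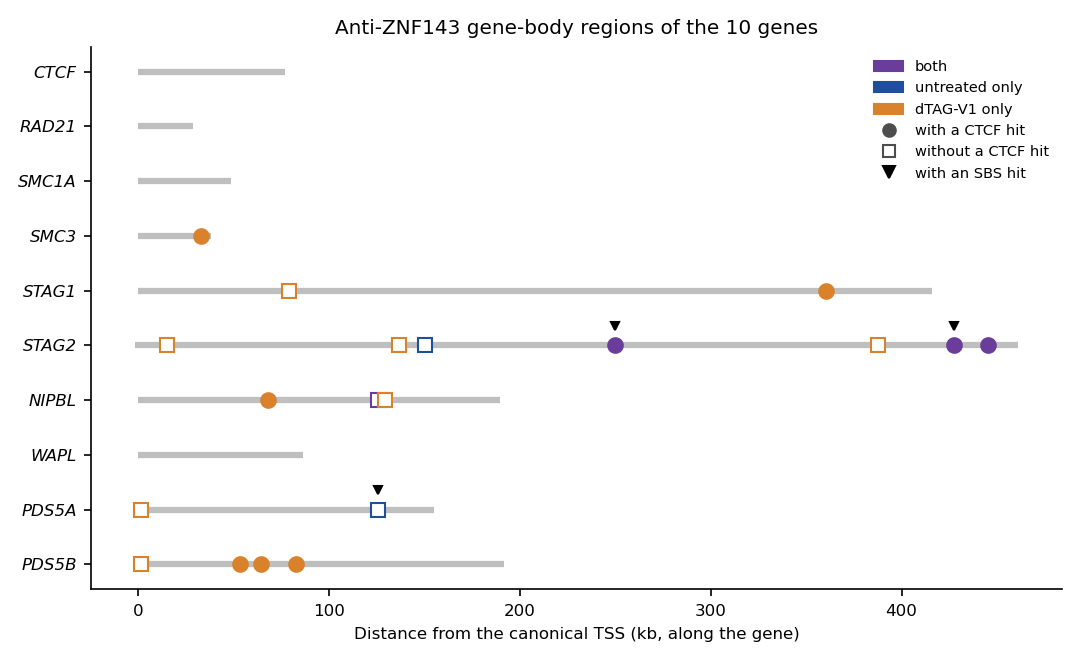
Gene-body regions along each gene, in kb from the canonical TSS. Grey lines are the annotated genes, colours give the list or lists that hold the region, filled circles have a CTCF hit at p 1e-05, open squares have none, and triangles mark an SBS hit. The 13 orange regions are spread over 6 genes, and the 3 purple circles lie in the distal part of the STAG2 record.

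The motif matches of 4 of the 5 gene-body regions with the highest −log10 q-values are printed below with that of PDS5A, which was chosen after its values were seen because it was found only in untreated cells. The remaining region, in NIPBL, was the strongest and held no match at any threshold searched.
STAG2 at 445151 bp, CTCF, match probability 2.75e-07 (chrX:124406843-124406872, plus strand): tacaaaacCCAGCAGAGGGTGCtgttgtca
STAG2 at 427061 bp, CTCF, match probability 3.21e-08 (chrX:124388753-124388782, plus strand): ttgaatgaCCACCAGATGGCAGtgtggggc
PDS5B at 53255 bp, CTCF, match probability 5.24e-07 (chr13:32639693-32639722, minus strand): tcttgcaaCCAGCAGATGGTGCcctccata
PDS5B at 82787 bp, CTCF, match probability 3.55e-06 (chr13:32669225-32669254, minus strand): ataaatggCCACCAGGAGGAGCtcacctag
PDS5A at 125508 bp, SBS1, match probability 3.13e-07 (chr4:39852389-39852418, plus strand): cacagaTTCCCATGATCCTCTGCTtcttct
Distances are from the canonical TSS along the gene. The CTCF sites of STAG2 and PDS5B lay 44, 13, 14 and 6 bp from the dTAG-V1 summits in this order, and the SBS1 site of PDS5A lay 8 bp from the untreated summit.

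STAG2 had 7 gene-body regions, the most of the 10 genes, of which 3 were found in both lists. In these 3, the −log10 q-value was 2.65 in the untreated and 9.18 in the dTAG-V1 list at 249863 bp, 4.53 and 23.3 at 427291 bp, and 3.31 and 24.9 at 445204 bp. Their ranks were 20265 and 20916, 18441 and 7847, and 19752 and 7207. Among gene-body peaks, they stood above 0.978%, 12.0% and 4.28% in the untreated list and above 43.8%, 83.9% and 85.8% in the dTAG-V1 list. The lists differ in length and in the rule of entry, so these places were not compared by a test. Each of the 3 regions holds a CTCF hit. Those at 249863 bp and 427291 bp also hold an SBS2 hit, with match probabilities of 1.78e-06 and 9.57e-06. The fold enrichments of the last pair were 2.24 and 2.28 in untreated and 3.85 and 4.62 in treated cells. The fold enrichment had the higher value in the dTAG-V1 list in 59.4% of all gene-body regions with 1 peak in each list, and in all 4 of the 10 genes, where the values of NIPBL differed least.
These regions lie past the last exon of the canonical transcript, within the extent of a single STAG2 transcript that has no defined coding sequence, and those at 427291 bp and 445204 bp also lie in TENM1, a gene for a teneurin cell adhesion protein. A region found only in untreated cells, at 150196 bp, was weak, with a −log10 q-value of 3.39. Of the 3 regions of STAG2 found only with dTAG-V1, those at 15185 bp and 136596 bp were the strongest, with −log10 q-values of 15.5 and 14.7, and lay in introns 1 and 34. When gene bodies were limited to canonical transcripts, these were the only gene-body regions of STAG2, and the 10 genes had 14 such regions.

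At NIPBL (chr5:36876769-37066413, plus strand), the region in intron 14 was found in both lists and was the strongest gene-body region of the 10 genes. Its −log10 q-value was 28.9 with rank 7194 in the untreated and 34.9 with rank 4686 in the dTAG-V1 list, and its fold enrichment was 4.44 and 4.5. The summits lay 20 bp apart. Neither a CTCF nor an SBS hit was found in it, even at p 5e-05. The region in intron 1 found only with dTAG-V1 had a −log10 q-value of 10.4 and a CTCF hit with a match probability of 6.37e-08, and the one in intron 16 had 6.0 and no hit at p 1e-05.

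The paralogs PDS5A and PDS5B had 2 and 4 gene-body regions. The region of PDS5A in intron 26 was found only in untreated cells, with a fold enrichment of 3.85, a −log10 q-value of 14.8 and rank 10592. It was the only gene-body region of the 10 genes with an SBS hit and no CTCF hit. The other region of PDS5A, the weak one just outside the promoter window, was found only with dTAG-V1 and held no hit. The 4 regions of PDS5B were all found only with dTAG-V1, and the one just outside its promoter window held no hit either. The strongest, in introns 1 and 7, had −log10 q-values of 17.0 and 15.9, above 71.7% and 69.3% of all gene-body peaks of that list. Together with the region in intron 2, 3 of the 4 regions of PDS5B held a CTCF hit and none held an SBS hit. No test of the difference between the paralogs was possible.

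SMC3 and STAG1 had 1 and 2 gene-body regions, all found only with dTAG-V1. That of SMC3, in intron 22, had a −log10 q-value of 9.04 and a CTCF hit with a match probability of 7.8e-07. The regions of STAG1, in introns 22 and 1, had −log10 q-values of 8.65 and 4.19, and the first held a CTCF hit with a match probability of 3.95e-07.

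**Figure D4:**
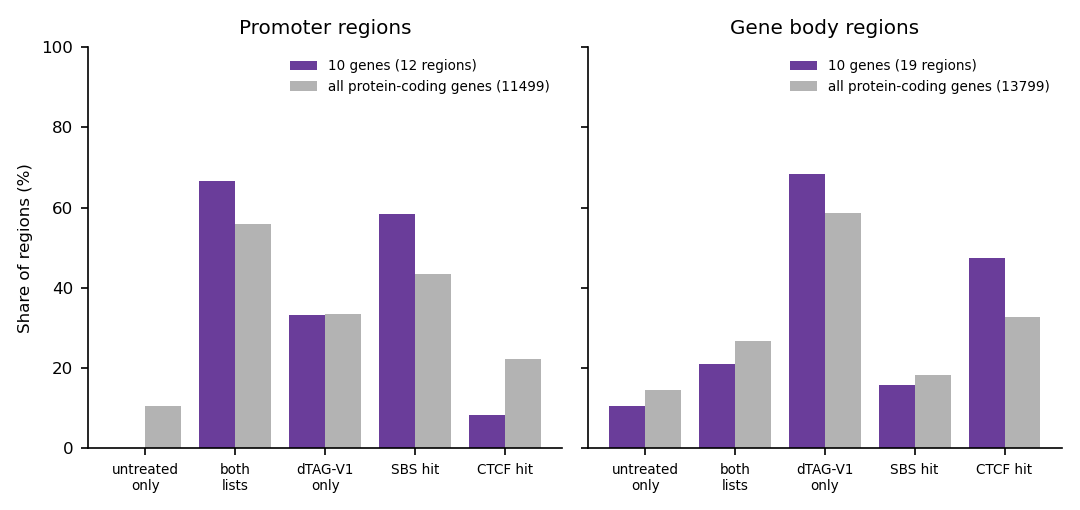
Share of promoter regions (left) and gene-body regions (right) in each class and with a motif hit at p 1e-05, in percent, for the 10 genes (purple) and for all protein-coding genes (grey). The grey bars for CTCF hits are 22.2% and 32.6%, and those for SBS hits are 43.4% and 18.3%. With 12 and 19 regions, 1 region moves a purple bar by several percentage points.

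Over all protein-coding genes, the class of a gene-body region went together with its motif. SBS hits were present in 54.2% of the regions found only in untreated cells, 23.4% of those in both lists and 7.12% of those found only with dTAG-V1. CTCF hits were present in 6.44%, 28.2% and 41.1% of the same classes. Among the 10 genes, CTCF hits were present in 6 of the 13 regions found only with dTAG-V1, 3 of the 4 in both lists and 0 of the 2 found only in untreated cells. The 3 regions with an SBS hit were those of STAG2 at 249863 bp and 427291 bp, in both lists, and that of PDS5A found only in untreated cells. The converse was also counted. Of the 18 CTCF hits at p 1e-06 within the 10 genes, 2 lay in a peak of the untreated list and 9 in a peak of the dTAG-V1 list, beside 6.7% and 23.8% of the 15782 such hits in all protein-coding genes. At p 1e-05, 2 and 11 of 158 hits lay in peaks, beside 1.64% and 4.79%. Of the regions of the 10 genes, only 3 of STAG2, all past its canonical transcript, had an untreated peak and a CTCF hit. The counts of hits in peaks thus rest in part on the long STAG2 record. The matrices were learned from these lists, so the presence of the motifs in peaks as a whole is no independent result.

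The strong promoter peaks lay in DNA rich in G and C. Within 500 bp around the centre, the G+C content was 74.8% at CTCF, 63.8% at SMC1A and 72.6% at WAPL, and the observed-to-expected ratio of CpG was 1.05, 0.942 and 0.92. The weak STAG1 region across the TSS had similar values of 72.2% and 0.984, and the weak STAG2 region across its TSS had 63.6% and 0.494. The other promoter regions had a G+C content of 31.6% to 57.6% and ratios of 0.323 to 0.923, the highest being that of the weak STAG2 region centred at −1086 bp. The medians over all promoter regions in both lists were 58.4% and 0.747. Gene-body regions of the 10 genes had 29.2% to 49.2%, where the medians of all gene-body regions were 39.6% to 42.4% by class. Whether base composition affected the strength of a peak was not tested.

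Other genes of the same pathways were taken from lists. Of 13 other cohesin genes, 9 had a promoter peak in either list, 8 in both and 1 only with dTAG-V1, beside 51.6% of all protein-coding genes in either list and 37.2% in both. MAU2, the partner of NIPBL in the loader, had −log10 q-values of 13296 in the untreated and 4483 in the dTAG-V1 list, ranking 110th and 145th, whereas NIPBL itself had no promoter peak. HDAC8, which deacetylates SMC3, had 17404 and 4021. ESCO2, which acetylates SMC3, had 6044 and 2636, and ESCO1, with the same activity, had 8.53 and 6.65. ESPL1, the protease separase that cuts RAD21, had 2357 and 942. CDCA5, or sororin, which protects cohesin from WAPL, had 56.7 and 19.6, and SGO1, a protector of centromeric cohesin, had 11.9 and 8.43. MAU2, HDAC8, ESCO2 and ESPL1 thus stood above SMC1A, the highest of the 10 genes, in both lists. Of the meiotic and germ cell paralogs, SMC1B had 5.07 and 10.9, RAD21L1 had only a weak dTAG-V1 peak of 3.44, and REC8, STAG3 and CTCFL had none. PTTG1, or securin, had none either.

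Of 14 genes for condensin and the SMC5/6 complex, which organise mitotic chromosomes and repair, 11 had a promoter peak in either list, 7 in both, 2 only in untreated cells and 2 only with dTAG-V1, beside the same 51.6% in either list and 37.2% in both. The SMC4 promoter had the highest values, 2739 and 650. NCAPD2 had 567 and 36.6, NCAPD3 102 and 14.5, and SMC2 81.7 and 101. NSMCE2 had 68.6 and 8.93, SMC6 56.0 and 6.98, and NCAPH2 11.4 and 11.6. The remaining promoter peaks, those of NCAPG, NCAPG2, NCAPH and NSMCE1, lay at 3.49 to 8.7 and were each in 1 list only. SMC5, NSMCE3 and NSMCE4A had none. In both lists of genes, as in the 10, a few promoters with values over 100 stood beside many weak or empty ones.

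**Figure D5:**
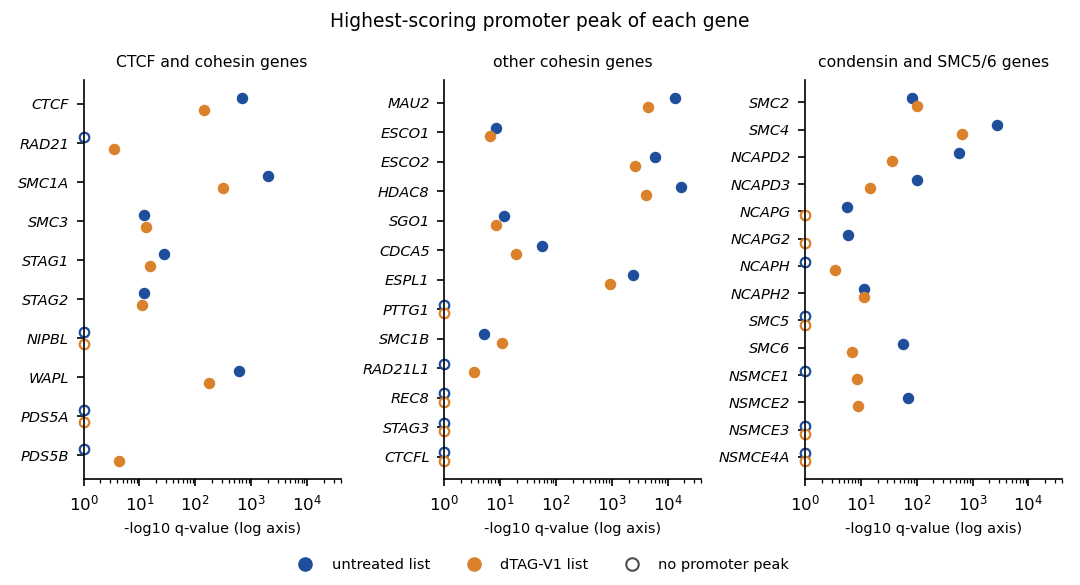
The −log10 q-value (log axis) of the highest promoter peak of each gene, in blue for the untreated and orange for the dTAG-V1 list, with open symbols at the left edge for genes without a promoter peak. The left panel holds the 10 genes, the middle panel 13 other cohesin genes and the right panel 14 genes for condensin and SMC5/6. MAU2 and HDAC8 reach values of 13296 and 17404 in the untreated list, while NIPBL, PDS5A and 7 of the other genes have no promoter peak in either list.

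The genes whose promoter peaks stood nearest to those of CTCF in both lists, by the distance of their percentile ranks, were CTDSPL2, CCDC142 and TTC31. CTDSPL2 had −log10 q-values of 731 and 154. CCDC142 and TTC31 share 1 promoter peak with 662 and 158. The distances were 0.217 and 0.2739 percentile points over 2 lists.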

How the data were processed

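The deposited data are 2 lists of narrow peaks in hg38, which stand for 8 of 14 samples. The 6 CTCF samples were not analysed here. According to the methods, the authors mapped reads with bwa mem, kept properly paired unique reads with SAMtools, removed duplicates with Picard and called peaks with MACS2, for which no control is named. The integer score, the fold enrichment (a ratio) and the −log10 q-value of each peak are the authors' values, each on the scale of its own list. Peak names of the untreated list refer to DMSO, but the labels and methods, which were followed, give no treatment. Pooled lists hold no per-sample columns, so 0 such columns were left unused. Depth is unknown.

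Genes were those of GENCODE release 44. Peaks overlapping by 1 bp or more were joined into regions. Motif matrices were learned from peaks on odd autosomes (10 iterations, pseudocount 0.8, sites at p 1e-06) and hg38 was searched. Hits at p 1e-05 were the main setting, with 5e-05 and 1e-06 as alternatives. At 5e-05, the genome held 1497095 SBS1 and 1317358 SBS2 hits, compared with 405045 and 317589 at 1e-05. The procedures were tested on simulated data. Python 3.11.15, numpy 2.4.6, pandas 2.3.3, numba 0.67.0, pysam 0.24.0, samtools 1.23.1 and matplotlib 3.10.9 were used.

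The genes, the lists and the alternatives were chosen with earlier results of these data known. All promoter peaks were named, as were gene-body regions in both lists or only untreated, and the 2 highest-scoring regions per gene found only with dTAG-V1. Other genes were named where they share a promoter window, belong to the pathway lists or rank nearest to CTCF. Alternatives were q-value limits, canonical TSSs, a narrower window, summits in place of centres, 50% overlap, other hit thresholds and, chosen after seeing the data, gene bodies limited to canonical transcripts.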

Additional observations from a re-analysis of the deposited data

How the results depend on the processing

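Of 98 values recomputed under the alternatives, 79 stayed within 1.5 times the reported count and 19 did not. With peaks of a −log10 q-value of at least 5, there was 1 promoter region of the 10 genes found only in untreated cells, that of STAG2, and there were 1 gene-body region found only in untreated cells and 1 in both lists. At a limit of 10, promoter regions were 1 only in untreated cells, 5 in both lists and 1 only with dTAG-V1, with 0 holding a CTCF hit. Gene-body regions were then 1 only in untreated cells, 1 in both lists and 7 only with dTAG-V1, with 5 holding a CTCF hit, and 7 condensin and SMC5/6 genes had a promoter peak. With 50% overlap required, 1 promoter region was found only in untreated cells. At a hit threshold of 5e-05, 6 promoter regions held a CTCF hit. At 1e-06, 2 promoter and 1 gene-body regions held an SBS hit. With gene bodies limited to canonical transcripts, an alternative chosen after seeing the data, 1 region was found only in untreated cells, 1 in both lists and 1 held an SBS hit. The 8 genes with a promoter peak in the dTAG-V1 list became 6 at a limit of 5 or 10, 7 with canonical TSSs and 9 with summits. The untreated count stayed at 6 in each of these settings. The presence or absence of weak peaks in a list, and of motif hits near the threshold, thus depended on these limits.

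The promoter peaks of CTCF, SMC1A and WAPL in both lists were kept at each limit. Leaving out single samples was not possible, since each list pools its samples. No paired analysis was possible because the lists hold no values per replicate. The methods require a peak in each untreated but in any treated sample, and this asymmetry cannot be told apart from an effect of dTAG-V1 on which peaks appear in 1 list only.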
